A study of Mus musculus with 16 samples.

Results

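The genes described are 8 G protein-coupled receptors for lipids, oxysterols and purines, or with an unsettled ligand, together with 2 G protein subunits, all taken from splenic CD4+ T cells of mice. They are Ltb4r1, S1pr4, P2ry10, Ptger4, Gpr183, Adora2a, Gpr83, Gpr18, Gna15 and Gng12, which make up 10 of the 47643 gene identifiers in the tables. The set was listed by receptor class and was chosen from the measured genotype comparison in Treg, where Ltb4r1, Gna15 and Gng12 were among the changed genes. Their Treg genotype differences are therefore given as a description with no test. All 10 were found by symbol in both tables.

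RNA was measured in 4 groups of 4 libraries: Treg of TRaGS mice, Treg of TRaWT mice, CD4 cells of TRaGS mice and CD4 cells of TRaWT mice. TRaGS mice carry a thyroid hormone receptor alpha whose DNA binding is abolished, and the TRaWT mice are the wild-type controls. Animal numbers of TRaGS replicates 3 and 4 (534845 and 535574) lie far from those of the TRaWT mice (529490 to 529518). Whether these mice share litters cannot be told from the numbers. Treg are CD25+ CD4+ cells and the cells called CD4 here are CD25- CD4+ cells, sorted from the same 8 spleens after magnetic enrichment of CD4+ cells. The labels call the CD25- cells naive, but the sort they describe names no naive marker. The labels give no age, sex or treatment for the mice. The question was how loss of DNA binding by this receptor changes gene expression in each subset, and libraries were made from mRNA 3′ ends.

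These receptors sit in the plasma membrane and signal through heterotrimeric G proteins made of an alpha, a beta and a gamma subunit. In lymphoid tissue, gradients of leukotrienes, sphingolipids, lysophospholipids and oxysterols steer T cells, while prostaglandin E2 and adenosine raise cAMP in T cells and dampen their activation. The alpha subunit Gna15 belongs to the Gq family, which activates phospholipase C beta, and gamma subunits such as Gng12 anchor the beta subunit to the membrane.

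The deposited values are read counts divided by a size factor per library, separately for each subset, and are called normalised counts here. CD4 libraries held 2679119 to 5095278 reads and the 7 Treg libraries whose reads could be recovered held 2912038 to 4154027. One abundant gene, Gm42418, took 21.1% to 41.1% of CD4 reads and 20.8% to 33.0% of Treg reads. Foxp3, the defining transcription factor of Treg, lay between 893 and 1330 normalised counts in Treg and between 43.1 and 170.1 in CD4, so the sort labels held in every library. Among CD4 libraries TRaGS replicate 2 stood apart, with mitochondrial mRNA at 3.71% of all reads, against 1.26% to 2.42% in the other CD4 libraries, so CD4 results that rest on it are also given without it. Its summed markers of 45 genes of other cell types were 242 RPM (reads per 1000000 reads other than Gm42418), of which 142 were erythroid cell and platelet markers, against 30.1 to 68.8 in the other TRaGS CD4 libraries and 66.8 to 101 in TRaWT CD4 libraries. The part of these markers in its values was not tested. The same sum averaged 129 ± 70.2 RPM in TRaGS Treg and 79.1 ± 33.9 in TRaWT Treg, and 100.3 ± 96.0 in TRaGS CD4 and 82.0 ± 14.3 in TRaWT CD4 (SD, n = 4 each). It leaves out the CD8 T cell markers Cd8a and Cd8b1. Together these averaged 138 ± 9.40 RPM in TRaGS Treg and 133 ± 13.6 in TRaWT Treg. In CD4 they averaged 142 ± 43.9 in TRaGS and 144 ± 28.2 in TRaWT (SD, n = 4 each). In these bulk samples, fewer cells of a type and less RNA per cell cannot be told apart.

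Since the mutation removes DNA binding, the promoters of the 3 genes with the largest Treg differences are shown, with the only promoter of the set that held a receptor half-site. RefSeq promoters (GRCm38.p6) run from 250 bases before to 50 bases after the start, written 5′ to 3′ on the gene's strand. Capitals mark TGACCT, which is the half-site AGGTCA read on the other strand.
Ltb4r1, chr14:55765712-55766011, plus strand: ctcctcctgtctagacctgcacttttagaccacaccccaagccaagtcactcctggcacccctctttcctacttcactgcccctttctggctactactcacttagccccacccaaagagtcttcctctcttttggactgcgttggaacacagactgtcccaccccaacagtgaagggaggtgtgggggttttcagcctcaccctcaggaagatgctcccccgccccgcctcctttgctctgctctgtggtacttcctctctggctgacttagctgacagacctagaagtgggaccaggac
Gna15, chr10:81524176-81524475, minus strand: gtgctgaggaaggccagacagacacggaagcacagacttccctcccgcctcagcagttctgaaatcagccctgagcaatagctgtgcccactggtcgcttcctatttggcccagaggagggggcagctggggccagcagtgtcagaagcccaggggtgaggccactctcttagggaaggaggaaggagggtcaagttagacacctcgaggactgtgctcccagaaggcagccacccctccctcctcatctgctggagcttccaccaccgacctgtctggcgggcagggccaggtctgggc
Gng12, first of its starts, chr6:66896147-66896446, plus strand: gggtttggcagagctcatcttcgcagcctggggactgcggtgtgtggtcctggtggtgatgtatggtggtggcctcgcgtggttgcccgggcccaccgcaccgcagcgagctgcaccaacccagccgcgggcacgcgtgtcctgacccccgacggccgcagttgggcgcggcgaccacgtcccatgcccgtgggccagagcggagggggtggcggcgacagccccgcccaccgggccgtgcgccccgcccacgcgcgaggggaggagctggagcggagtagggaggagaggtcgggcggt
P2ry10, first of its starts, chrX:107088242-107088541, plus strand: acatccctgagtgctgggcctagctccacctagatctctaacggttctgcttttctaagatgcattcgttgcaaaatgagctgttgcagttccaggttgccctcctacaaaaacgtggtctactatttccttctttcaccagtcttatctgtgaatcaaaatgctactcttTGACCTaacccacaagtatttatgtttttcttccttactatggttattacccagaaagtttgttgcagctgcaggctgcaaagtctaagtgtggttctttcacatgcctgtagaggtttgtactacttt

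Promoters were found for 9 of the 10 genes, in 11 windows. The half-site AGGTCA, searched on both strands, was in 1 of the 11 windows, 79 bases before the P2ry10 start, and in 16.3% of 32851 mouse promoters of the same length. A pair of half-sites in the same direction with 4 bases between them, on either strand, was in 0 of the 11 windows and in 5 of all promoters (0.0152%). The cAMP response element TGACGTCA was in 0 of the 11 windows and in 1.79% of all promoters. The Gng12 windows had GC contents of 74.0% and 73.3%, the Ltb4r1 window 56.3%, the Gna15 window 62.3% and the first P2ry10 window 42.3%, beside a median of 52.7% over all promoters. A match describes letters only, and a window without one says nothing about more distant sites.

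In Treg, Ltb4r1 and Gna15 were higher and Gng12 lower in every TRaGS library than in every TRaWT library, and Gpr18 was also lower in all 4. The other 6 receptors had overlapping genotypes. Of the 10 genes, 3 were among those that limma called at an adjusted p under 0.05, which were 0.959% of the 11051 genes tested: 2 of the 3 were higher in TRaGS (0.733% of genes) and 1 was lower (0.226% of genes). Values of the 4 TRaGS and 4 TRaWT libraries did not overlap for 4 of the 10 genes, beside 5.07% of all genes tested. Nothing is read from these counts, because the genes were chosen with this comparison known. The median log2 fold change of the 10 genes was 0.00, with 5 positive and 5 negative, and that of all genes tested was 0.01. All 10 passed the filter of a mean of at least 5 normalised counts in Treg, Ltb4r1 only through the TRaGS libraries.

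In CD4 cells none of the genes differed by genotype at an adjusted p under 0.05. With limma 0 of the 9 genes tested were called, beside 0.0575% of the 10426 genes tested. Gpr83 and P2ry10 had an unadjusted limma p under 0.05, as did 539 of all 10426 genes tested. None of the 9 was called with edgeR or DESeq2. Genotypes overlapped for all 9, while 3.16% of the tested genes showed no overlap. Log2 fold changes were positive for 7 of the 9 and negative for 2, with a median of 0.46 beside -0.01 over all genes tested. Without TRaGS replicate 2, left out after seeing the data, all 9 were positive, with S1pr4 and Ptger4 at only 0.03 each. Their limma adjusted p then ran from 0.806 for Gna15 to 0.995 for S1pr4 and Ptger4. The share of all genes that were positive in that setting was not counted, so nothing is read from it. The standard errors in CD4 come from the trend over all genes, since limma set each gene's variance to that trend. Over all alternatives, the adjusted p of these 9 genes in CD4 ran from 0.199 to 1.00. Ltb4r1 was below the level tested.

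**Figure D1:**
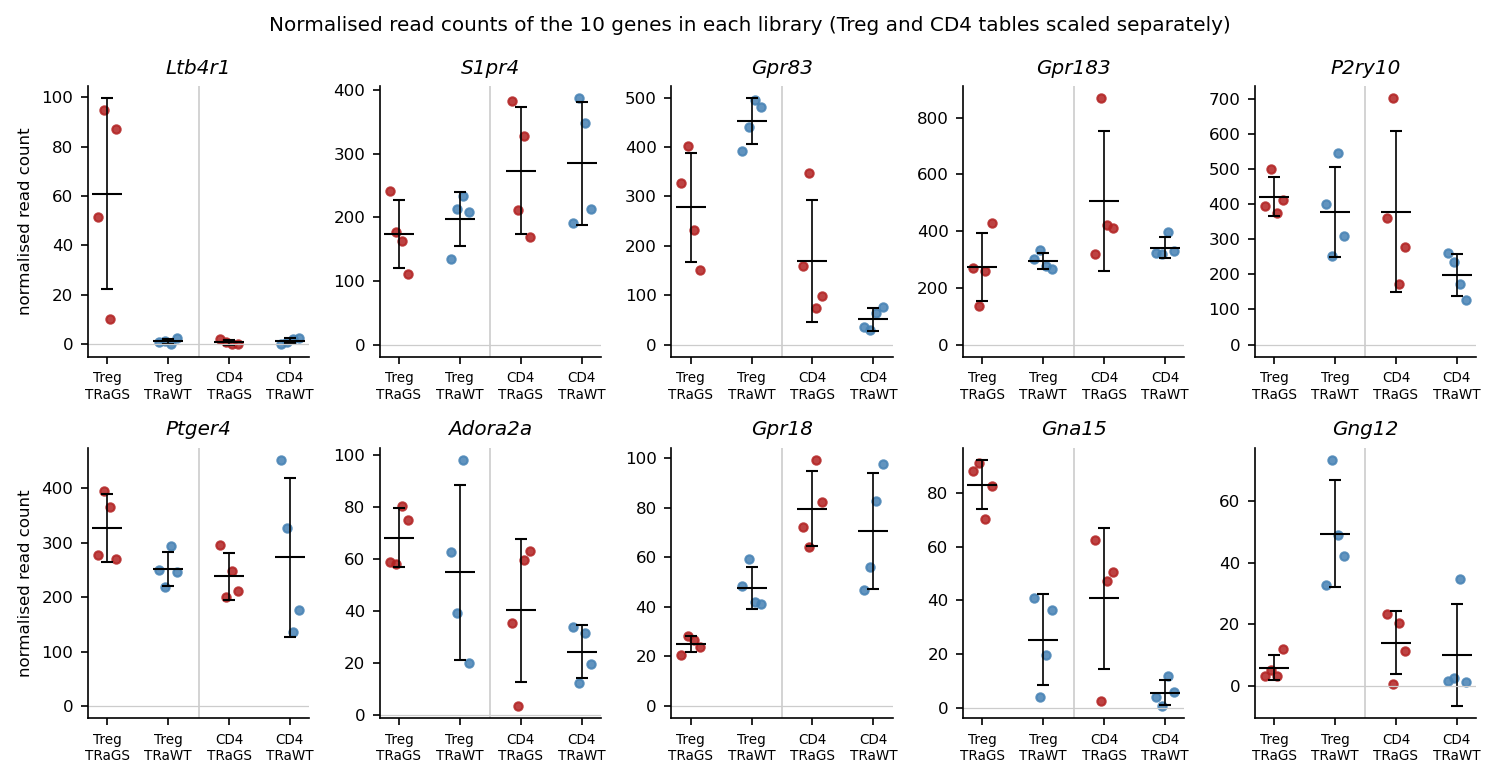
Normalised counts of the 10 genes in each library of the 4 groups, with the mean and SD (n = 4); the Treg and CD4 tables were scaled separately, so levels are to be compared within a subset. In Treg, Ltb4r1 and Gna15 lie higher and Gng12 and Gpr18 lower in every TRaGS library, and among the TRaGS CD4 libraries replicate 2 holds the highest Gpr83, Gpr183 and P2ry10 and the lowest Gna15, Adora2a and Gng12 values.

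**Figure D2:**
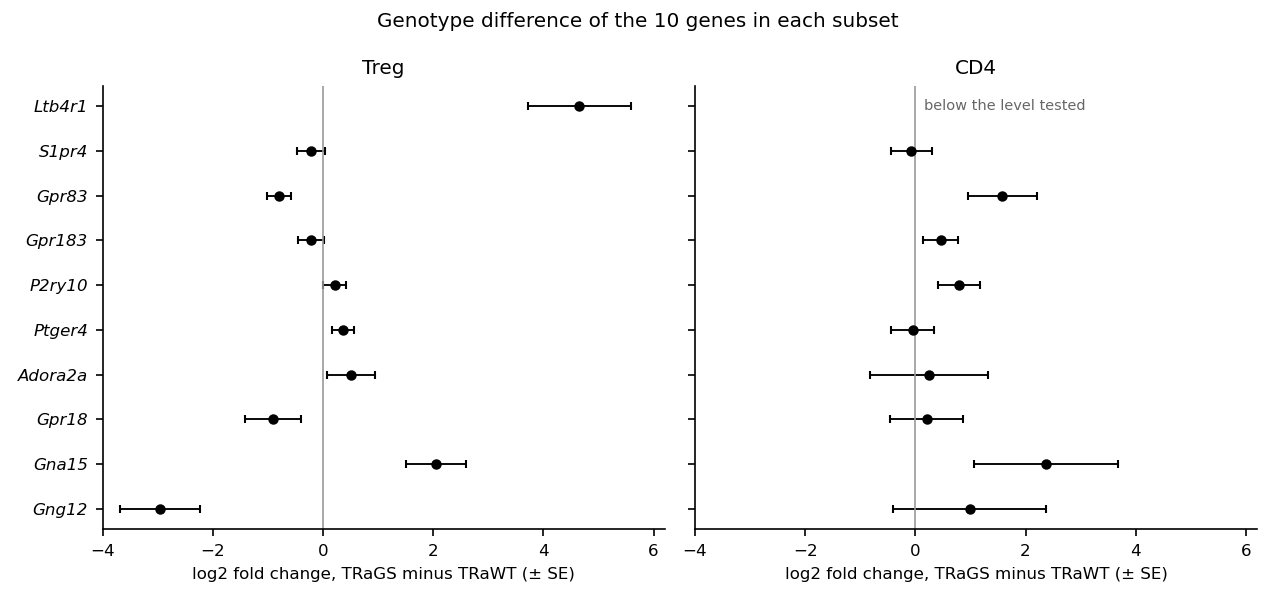
Log2 fold change, TRaGS minus TRaWT, of each gene in Treg (left) and CD4 (right), with its limma SE; fits used 4 libraries per genotype. In Treg the values run from -2.96 for Gng12 to 4.65 for Ltb4r1, and in CD4 from -0.07 for S1pr4 to 2.37 for Gna15.

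Ltb4r1 (chr14:55765962-55768494, plus strand, GRCm38) encodes the high-affinity leukotriene B4 receptor BLT1, a chemoattractant receptor of neutrophils and effector T cells. Its Treg level was 51.5, 94.7, 10.04 and 87.0 normalised counts in TRaGS replicates 1 to 4, against 0.822, 1.01, 0 and 2.35 in TRaWT replicates 1 to 4. All TRaGS libraries lay above all TRaWT libraries, and TRaGS replicate 3 lay far below the other 3 TRaGS libraries. The means were 60.8 ± 38.7 and 1.04 ± 0.973 (SD, n = 4 each), a log2 fold change of 4.65 ± 0.94 (SE) on the log2(value + 1) scale. In reads, 282 were counted over the 4 TRaGS libraries and 3 over the 3 TRaWT libraries with recovered reads. Per read other than Gm42418, that is a ratio of 64.0 with a 95% exact binomial interval of 21.7 to 312, which covers counting error only. The interval pools reads over mice and leaves out the spread between them. It is no test, since this comparison chose the gene. In CD4 it had 1.96, 0.707, 0 and 0 normalised counts in TRaGS libraries, against 0, 0.835, 2.18 and 2.44 in TRaWT libraries, which is 0 to 2 reads per library. The receptor was thus at the edge of detection in CD4 of both genotypes and in TRaWT Treg.

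Neutrophils are known for high Ltb4r1. The summed neutrophil markers were 18.2, 0.608, 8.39 and 0.455 RPM in TRaGS Treg replicates 1 to 4, against 0.340, 0.443, 0 and 0 in TRaWT Treg. Of the 7 markers, 4 had a higher mean in TRaGS and Ly6g, Mpo and Elane were at 0 in every Treg library. Neutrophil markers were highest in TRaGS replicates 1 and 3, and Ltb4r1 in TRaGS replicates 2 and 4. The part of neutrophils in the Ltb4r1 values was not tested. Macrophage and dendritic cell markers summed to 13.99 ± 7.78 and 12.98 ± 7.41 RPM in TRaGS and TRaWT Treg, with Adgre1 at 0 (SD, n = 4 each). Of 7 eosinophil, basophil and mast cell markers, 6 were at 0 in every Treg library. B cell markers summed to 69.5 ± 35.7 and 39.3 ± 23.3 and plasma cell markers to 12.6 ± 16.1 and 1.83 ± 3.11 RPM in TRaGS and TRaWT Treg, and their part in the Ltb4r1 values was not tested. The nearest genes, Ltb4r2 at 824 bases, a low-affinity leukotriene B4 receptor, and Adcy4 at 563 bases, an adenylyl cyclase, had 0 reads in every library. At this depth 3 reads stand for 0.912 to 1.48 RPM in Treg libraries and 0.746 to 1.77 in CD4 libraries, levels that a count of 0 still allows.

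S1pr4 (chr10:81497747-81500132, minus strand) encodes a sphingosine phosphate receptor of lymphoid cells. Its Treg level ranged from 111 to 241 normalised counts in TRaGS and from 135 to 233 in TRaWT libraries, with means of 173 ± 53.5 and 197 ± 43.1 (SD, n = 4 each). In CD4 the ranges were 169.6 to 383 in TRaGS and 191 to 387 in TRaWT, with a log2 fold change of -0.07 ± 0.37 (SE, limma adjusted p = 0.988). The genotypes overlapped in both subsets. Its other neighbour Ncln, 1355 bases away, averaged 282 ± 44.6 in TRaGS and 362 ± 82.9 in TRaWT Treg (SD, n = 4 each).

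P2ry10 (chrX:107088492-107104974, plus strand) encodes a receptor for lysophosphatidylserine, and its counts are uncertain where reads could come from its near relative P2ry10b. Its Treg level was 396, 502, 374 and 413 normalised counts in TRaGS libraries, against 399, 253, 547 and 309.9 in TRaWT libraries, and the genotypes overlapped. In CD4 it was 362, 702, 173 and 277 in TRaGS libraries, against 260.0, 235, 172 and 126 in TRaWT libraries. The CD4 means were 379 ± 229 and 198 ± 60.8, a log2 fold change of 0.80 ± 0.38 (SE, limma adjusted p = 0.947). Without TRaGS replicate 2 that change was 0.44 (limma adjusted p = 0.962), so this library carried much of it.

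Ptger4 (chr15:5206661-5244187, minus strand) encodes the prostaglandin E2 receptor EP4, which raises cAMP. Treg held 277, 394, 366 and 269.7 normalised counts in TRaGS, against 249.9, 218, 294 and 246 in TRaWT. The genotypes overlapped through 1 TRaWT library, with a log2 fold change of 0.36 ± 0.20 (SE). In CD4 TRaGS libraries ranged from 199 to 295 and TRaWT libraries from 135 to 452, with a log2 fold change of -0.05 ± 0.39 (SE, limma adjusted p = 0.991). Exons of Ttc33 and of the pseudogene Gm15937 lie opposite those of Ptger4. Whether counting used strand is not stated, so reads of these genes may mix. Ttc33 averaged 71.3 ± 15.9 in TRaGS and 63.2 ± 17.6 in TRaWT Treg, and Gm15937 16.6 ± 7.06 and 11.6 ± 21.1 (SD, n = 4 each).

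Gpr183 (chr14:121952551-121965195, minus strand) encodes the oxysterol receptor EBI2, which positions T and B cells at the borders of lymphoid follicles. In Treg it ranged from 137 to 427 normalised counts in TRaGS and from 266 to 334 in TRaWT libraries, with means of 274 ± 119 and 294.5 ± 29.8 (SD, n = 4 each). TRaGS Treg spread both above and below all TRaWT Treg. In CD4 it had 319.7, 868, 421 and 411 in TRaGS libraries, against 324, 318, 395 and 330.5 in TRaWT libraries. The CD4 log2 fold change was 0.46 ± 0.32 (SE, limma adjusted p = 0.947), and 0.16 without TRaGS replicate 2, whose 868 was the highest of all CD4 libraries.

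Adora2a (chr10:75316877-75334784, plus strand) encodes the adenosine A2a receptor, the purine receptor of the set, which raises cAMP in T cells. In Treg it had 59.0, 57.8, 80.3 and 75.0 normalised counts in TRaGS libraries, against 62.5, 39.2, 98.0 and 19.95 in TRaWT libraries. The TRaGS libraries lay within the TRaWT range, with a log2 fold change of 0.51 ± 0.44 (SE). In CD4 it had 35.2, 3.54, 59.5 and 63.0 in TRaGS libraries, against 33.9, 12.5, 31.6 and 19.5 in TRaWT libraries. The CD4 log2 fold change was 0.25 ± 1.07 (SE, limma adjusted p = 0.987). Without TRaGS replicate 2, the lowest CD4 library, the other 3 TRaGS libraries lay above all TRaWT libraries, with means of 52.6 ± 15.1 (SD, n = 3) and 24.4 ± 10.1 (SD, n = 4) and a log2 fold change of 1.13 (limma adjusted p = 0.962). The adjoining gene Specc1l averaged 131 ± 57.0 in TRaGS and 149 ± 43.2 in TRaWT Treg (SD, n = 4 each).

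Gpr83 (chr9:14860210-14870789, plus strand) encodes a receptor known to be enriched in Foxp3+ T cells. In Treg it had 326, 401, 232 and 150.1 normalised counts in TRaGS libraries, against 392, 441, 496 and 480.1 in TRaWT libraries. TRaGS replicate 2 overlapped the TRaWT range and the other 3 lay below it, with means of 277 ± 109.6 and 452 ± 46.3 and a log2 fold change of -0.79 ± 0.22 (SE). In CD4 it had 158, 346, 74.8 and 98.5 in TRaGS libraries, against 35.5, 28.4, 63.2 and 75.6 in TRaWT libraries. The CD4 means were 169.5 ± 123 and 50.7 ± 22.4 (SD, n = 4 each), a log2 fold change of 1.58 ± 0.63 (SE, limma adjusted p = 0.943), and only TRaGS replicate 3, just below TRaWT replicate 4, fell within the TRaWT range. Without TRaGS replicate 2 the change was 1.15 (limma adjusted p = 0.958). The sum of 6 Treg markers in the CD4 libraries was 507, 456, 647 and 726 RPM in TRaGS, against 475, 407, 451 and 468 in TRaWT, and 5 of the 6 had a higher mean in TRaGS CD4. The library with the highest Gpr83 in CD4, TRaGS replicate 2, had the lowest Treg marker sum of the TRaGS CD4 libraries, and the part of these markers in the Gpr83 values was not tested. In Treg the same markers summed to 4410 ± 374 RPM in TRaGS and 3400 ± 189 in TRaWT, and 4 of the 6 had a higher mean in TRaGS (SD, n = 4 each). The 6 markers did not all move together. Ikzf2 averaged 5466 ± 668 normalised counts in TRaGS Treg and 3751 ± 432 in TRaWT Treg, Nrp1 1472 ± 175 and 840 ± 91.5, and Tnfrsf18 765 ± 61.3 and 518 ± 48.8. Each of these was higher in every TRaGS Treg library than in every TRaWT Treg library. Genotypes overlapped for Il2ra, at 1141 ± 165 and 1499.6 ± 151, Ctla4, at 266 ± 131 and 243 ± 72.3, and Foxp3, at 1156 ± 199 and 1165 ± 65.4 (SD, n = 4 each).

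Gpr18 (chr14:121911253-121915781, minus strand) encodes a lymphocyte receptor whose ligand remains debated. Treg held 20.8, 28.2, 26.8 and 23.9 normalised counts in TRaGS, against 48.5, 59.4, 41.99 and 41.1 in TRaWT. All TRaGS Treg lay below all TRaWT Treg, with means of 24.9 ± 3.29 and 47.7 ± 8.42 (SD, n = 4 each) and a log2 fold change of -0.90 ± 0.51 (SE). In CD4 it ranged from 64.3 to 99.4 in TRaGS and from 46.8 to 97.6 in TRaWT libraries, and the genotypes overlapped, with a log2 fold change of 0.21 ± 0.66 (SE, limma adjusted p = 0.987). Gpr18 and Gpr183 both lie inside Ubac2, a gene on the opposite strand whose exons overlap neither, and Ubac2 averaged 126 ± 36.2 in TRaGS Treg and 152 ± 31.2 in TRaWT Treg (SD, n = 4 each). Gpr183 overlapped between genotypes in Treg where Gpr18 did not, and the part of the shared host gene in these values was not tested.

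Gna15 (chr10:81502306-81524225, minus strand) encodes G alpha 15, a Gq family subunit of blood cells that many receptors can engage. Treg held 88.0, 91.1, 70.3 and 82.6 normalised counts in TRaGS, against 41.1, 4.02, 19.8 and 36.4 in TRaWT. All TRaGS Treg lay above all TRaWT Treg, and their spread was narrow, with means of 83.0 ± 9.18 and 25.3 ± 16.9 (SD, n = 4 each) and a log2 fold change of 2.05 ± 0.54 (SE). In CD4 it had 62.6, 2.83, 47.2 and 50.4 in TRaGS libraries, against 4.04, 0.835, 11.98 and 6.10 in TRaWT libraries. The CD4 means were 40.7 ± 26.1 and 5.74 ± 4.69 (SD, n = 4 each), a log2 fold change of 2.37 ± 1.30 (SE, limma adjusted p = 0.947). Of the TRaGS CD4 libraries, only replicate 2 fell within the TRaWT range. Without it the CD4 genotypes did not overlap, with a TRaGS mean of 53.4 ± 8.12 (SD, n = 3), a log2 fold change of 3.32 and a limma adjusted p of 0.806. S1pr4 lies 2174 bases downstream on the same strand and Gna11, another Gq family alpha subunit, 4499 bases upstream. Gna11 averaged 41.5 ± 12.6 in TRaGS Treg and 48.7 ± 15.9 in TRaWT Treg (SD, n = 4 each), and the genotypes overlapped in Treg for both neighbours.

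Gng12 (chr6:66896397-67021350, plus strand) encodes a G protein gamma subunit. Treg held 3.32, 5.06, 3.35 and 11.96 normalised counts in TRaGS, against 32.9, 73.4, 49.0 and 42.3 in TRaWT. All TRaGS Treg lay below all TRaWT Treg, with means of 5.92 ± 4.11 and 49.4 ± 17.3 (SD, n = 4 each) and a log2 fold change of -2.96 ± 0.72 (SE). In CD4 it had 23.5, 0.707, 20.5 and 11.5 in TRaGS libraries, against 1.61, 2.51, 34.8 and 1.22 in TRaWT libraries. There the genotypes overlapped, with a log2 fold change of 0.98 ± 1.38 (SE, limma adjusted p = 0.957), and TRaWT replicate 3 lay far above the other TRaWT libraries. Without TRaGS replicate 2 the CD4 change was 1.85 (limma adjusted p = 0.962). The only gene whose exons overlap it, 4930597O21Rik on the opposite strand, had 0 reads in every library. The noncoding genes and pseudogenes within or beside Gna15 and Gng12 that were in the tables (Gm16106, Gm25595, Gm36816, Gm15644 and Gm29848) were below the level tested in both subsets.

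Treg and CD4 of the same mouse were set side by side in RPM, as a description, because the tables were scaled separately. Gpr83 and Gna15 were higher in Treg than in CD4 in 8 of 8 mice, and Gpr183 was lower in Treg in 8 of 8. P2ry10 and Adora2a were higher in Treg in 7 of 8 mice, and S1pr4 and Gpr18 in 1 of 8. Ptger4 was higher in Treg in 5 of 8 mice, with a mean log2 difference of 0.16 ± 0.75 (SD, n = 8). Without the mouse of TRaGS replicate 2, left out after seeing the data, Gpr83, Gna15 and P2ry10 were higher in Treg in 7 of 7 mice, Adora2a in 6 of 7, Ptger4 in 4 of 7, Gpr18 in 1 of 7, and S1pr4 and Gpr183 in 0 of 7.

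In the mice measured, the subset difference of Gpr83 was smaller in TRaGS than in TRaWT, given as a description. Its Treg values belong to the genotype comparison that was known when the genes were chosen. TRaGS Treg averaged 119 ± 46.4 RPM and TRaGS CD4 68.8 ± 38.2, a mean log2 difference of 0.84 (0.38 to 1.51). TRaWT Treg averaged 192 ± 21.1 and TRaWT CD4 24.2 ± 11.3, a mean log2 difference of 3.04 (2.43 to 3.78), so the ranges of the 2 genotypes did not overlap (SD, n = 4 mice each). The ranges of Ltb4r1 did not overlap either, at 2.44 to 5.23 in TRaGS and -1.04 to 0.42 in TRaWT mice. The share of all genes without such overlap was not counted, so nothing is read from it. Without TRaGS replicate 2 the TRaGS mean log2 difference was 0.97 (0.38 to 1.51). From high to low, the mean levels ran TRaWT Treg, TRaGS Treg, TRaGS CD4 and TRaWT CD4, and each neighbouring pair in that order overlapped in range.

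The subset differences of Gng12 and Ltb4r1 also varied with genotype, but both genes were chosen by their Treg genotype difference. These values are therefore no separate result. For Ltb4r1, at the edge of detection in CD4, they repeat the Treg values. Gng12 was higher in Treg in 1 of 4 TRaGS mice, at 2.52 ± 1.69 in Treg and 6.47 ± 4.65 in CD4, and in 4 of 4 TRaWT mice, at 21.1 ± 8.02 in Treg and 4.85 ± 8.05 in CD4. The TRaGS mouse with more Gng12 in Treg was replicate 2, and without it Gng12 was higher in Treg in 0 of 3 TRaGS mice. Ltb4r1 was higher in Treg in 4 of 4 TRaGS mice, at 25.8 ± 16.1 in Treg and 0.277 ± 0.406 in CD4, and in 2 of 4 TRaWT mice, at 0.443 ± 0.411 in Treg and 0.657 ± 0.560 in CD4 (RPM, SD). Gna15 was higher in Treg of both genotypes, at 35.6 ± 3.53 in Treg and 18.9 ± 12.1 in CD4 of TRaGS mice and at 10.6 ± 6.97 in Treg and 2.76 ± 2.30 in CD4 of TRaWT mice. The Gna15 mean log2 difference in TRaGS mice was 1.43 with replicate 2 and 0.47 ± 0.01 without it (SD, n = 3), against 1.54 ± 0.99 in TRaWT mice (SD, n = 4). Whether the genotype effect differed between subsets was not tested for any of the 10 genes.

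**Figure D3:**
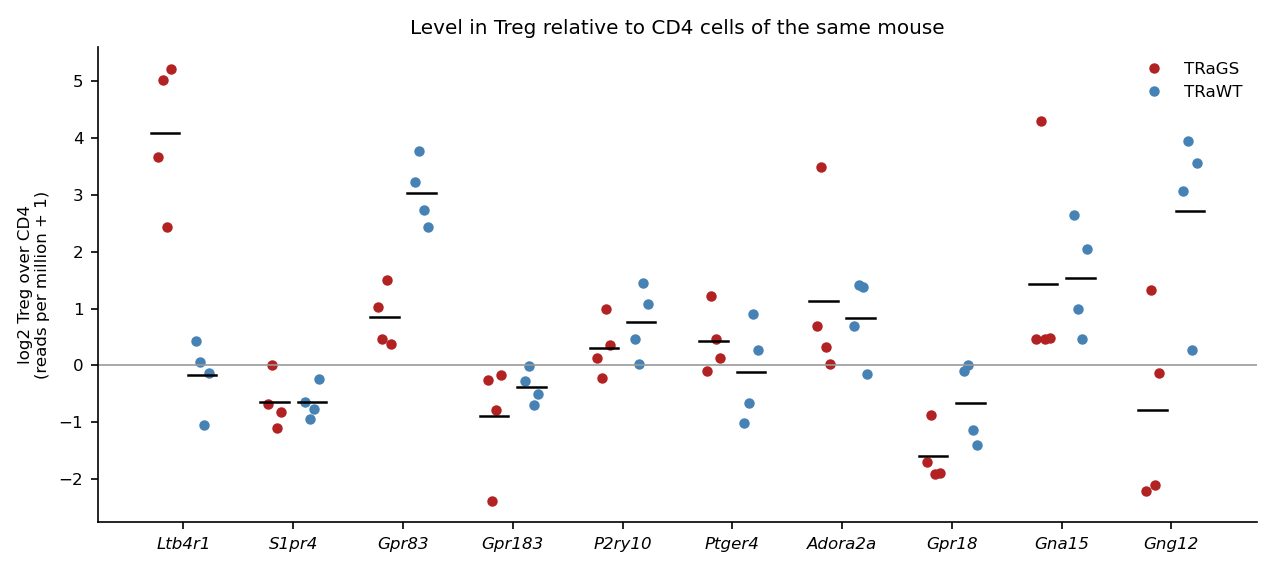
Log2 of Treg over CD4 level (RPM plus 1) for each gene, 1 point per mouse and a bar at the mean of 4 mice, TRaGS left of TRaWT. Gpr83 runs from 0.38 to 1.51 in TRaGS mice and from 2.43 to 3.78 in TRaWT mice, and Gpr183 is below 0 in all 8 mice.

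The wider signalling pathway was read from 9 lists of other receptors, G protein subunits, ligand enzymes, regulators and effectors. Of 212 genes listed, 210 were in the tables and 107 were tested in Treg, of which limma called 1 (0.935%), near the 0.959% of all genes. In CD4 limma called 0 of 103, and edgeR and DESeq2 called 0 as well. An unadjusted limma p under 0.05 was found in CD4 for 8 of the 103, beside 539 of all 10426 genes tested. Genotypes did not overlap for 6 of the 107 in Treg (5.61%, against 5.07% of all genes) and for 2 of the 103 in CD4 (1.94%, against 3.16%).

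The gene that limma called was Plcb4, phospholipase C beta 4, an effector of Gq family alpha subunits such as Gna15. Its Treg level was 234, 354, 239.8 and 311 normalised counts in TRaGS libraries, against 132, 129, 68.8 and 191 in TRaWT libraries. Every TRaGS library was above every TRaWT library, with means of 285 ± 57.7 and 130.1 ± 50.03 (SD, n = 4 each) and a log2 fold change of 1.19 ± 0.26 (SE, limma adjusted p = 0.0104). The call was lost with edgeR (adjusted p = 0.0835) and without TRaWT replicate 3 (limma adjusted p = 0.0558), and over all alternatives the adjusted p ran from 0.00386 to 0.0835. In CD4 Plcb4 averaged 37.8 ± 32.3 in TRaGS and 24.3 ± 8.98 in TRaWT libraries (SD, n = 4 each), with a limma adjusted p of 0.988. In the whole list of 23 tested cAMP and phospholipase C effectors, the median log2 fold change in Treg was 0.14.

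Among 18 other lipid and metabolite receptors tested in Treg, 10 had positive and 8 negative log2 fold changes, and the median was 0.13. The smallest p belonged to Cysltr2, a receptor for cysteinyl leukotrienes, with 59.0, 6.51, 31.2 and 35.9 normalised counts in TRaGS Treg, against 4.93, 5.03, 1.17 and 3.52 in TRaWT Treg. Its genotypes did not overlap, but its limma adjusted p was 0.228 and its edgeR adjusted p 0.175, while DESeq2 called it at an adjusted p of 0.0277. Over all alternatives the adjusted p of Cysltr2 ran from 0.0277 to 0.733. Cysltr2 passed the filter only through the TRaGS libraries, with means of 33.1 in TRaGS and 3.66 in TRaWT Treg. Nothing is therefore read from its lack of overlap or its DESeq2 call. Gpr174, a lysophosphatidylserine receptor like P2ry10, averaged 392 ± 32.5 in TRaGS Treg and 556 ± 107.5 in TRaWT Treg (SD, n = 4 each), also without overlap and with a limma adjusted p of 0.311. Only 3 of 17 other purine receptors were tested, P2ry14 and P2rx7 among them. P2ry14, a receptor for UDP sugars, averaged 10.1 ± 7.08 in TRaGS and 0.292 ± 0.583 in TRaWT Treg (limma adjusted p = 0.475). It too passed the filter only through the TRaGS libraries. P2rx7, an ATP-gated channel, averaged 139 ± 35.6 in TRaGS and 194 ± 86.6 in TRaWT Treg (limma adjusted p = 0.709). In 10 other orphan and adhesion receptors the median was 0.12, and the smallest p values, of Gpr146 and Gpr107, adjusted to 0.476 and 0.693 with limma.

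Of 8 other alpha subunits tested in Treg, 0 passed with limma, and the median log2 fold change was 0.22. An unadjusted limma p under 0.05 was found for 1 of the 8, beside 1008 of all 11051 genes tested. Gnaq, a Gq family member, averaged 123 ± 22.3 in TRaGS Treg and 74.0 ± 23.0 in TRaWT Treg without overlap (SD, n = 4 each, limma adjusted p = 0.431). Gnas, the subunit that activates adenylyl cyclase, averaged 1052 ± 154 and 852 ± 86.5 in TRaGS and TRaWT Treg (limma adjusted p = 0.549). Among 7 other beta and gamma subunits the median was 0.11. Gngt2 averaged 22.3 ± 21.5 in TRaGS Treg and 43.7 ± 16.9 in TRaWT Treg (limma adjusted p = 0.509), and Gnb4 43.8 ± 28.0 and 67.7 ± 28.1 (limma adjusted p = 0.694).

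Of 9 lipid mediator and oxysterol enzymes tested in Treg, 7 had positive and 2 negative log2 fold changes. Hpgds, a prostaglandin D synthase, averaged 29.3 ± 13.5 in TRaGS and 17.1 ± 18.4 in TRaWT Treg (limma adjusted p = 0.686). Lta4h, the enzyme that makes leukotriene B4, averaged 100.5 ± 16.8 in TRaGS and 138 ± 40.4 in TRaWT Treg (limma adjusted p = 0.732). Of 13 purine ectoenzymes and transporters, Nt5e, the CD73 enzyme that makes adenosine, averaged 285 ± 61.9 in TRaGS and 221 ± 37.7 in TRaWT Treg (limma adjusted p = 0.668). Slc29a2, a nucleoside transporter, averaged 1.66 ± 3.32 in TRaGS and 11.95 ± 12.3 in TRaWT Treg (limma adjusted p = 0.505). It passed the filter only through the TRaWT libraries. Of 16 regulators of receptor signalling, Grk6, a receptor kinase, averaged 387 ± 131 in TRaGS and 557 ± 63.2 in TRaWT Treg (limma adjusted p = 0.229). In CD4 Grk6 was lower in all 4 TRaGS libraries, at 422 ± 153 against 674 ± 62.4 in TRaWT (SD, n = 4 each, limma adjusted p = 0.899). Rgs10, which speeds the switching off of alpha subunits, averaged 241 ± 41.8 in TRaGS and 361 ± 75.8 in TRaWT Treg (limma adjusted p = 0.312).

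**Figure D4:**
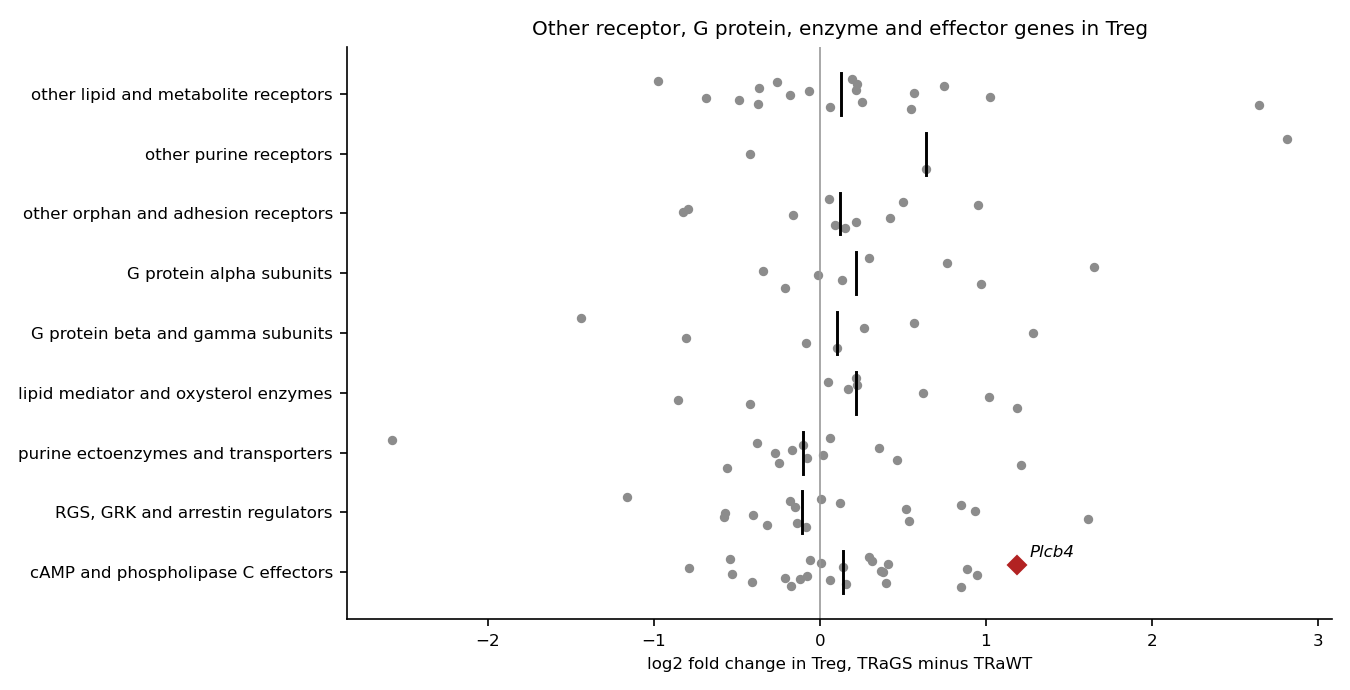
Log2 fold change in Treg, TRaGS minus TRaWT, of each tested gene of the 9 lists, with a bar at each list's median. Medians lie between -0.11 and 0.64, and the red diamond is Plcb4, the only one of these genes that limma called at an adjusted p under 0.05.

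The genes whose pattern over the 8 Treg libraries was most like each of the 3 genes with the largest differences were found by Pearson correlation of log2(value + 1), given as a description. For Ltb4r1 they were Fgl2 (r = 0.99), a secreted fibrinogen-like protein of Treg, the pseudogene Rps27a-ps1 (r = 0.96) and Ctsh (r = 0.95), a lysosomal protease. Fgl2 averaged 93.3 ± 35.4 normalised counts in TRaGS and 27.0 ± 4.25 in TRaWT Treg. For Gna15 they were the chemokine receptor gene Ccr4 (r = 0.99), Akap7 (r = 0.98), which encodes an anchor of protein kinase A, and Nol4l (r = 0.98). Ccr4 averaged 146.8 ± 12.995 in TRaGS and 59.7 ± 31.8 in TRaWT Treg. For Gng12 they were Rplp0 (r = 0.96), a ribosomal protein gene, Rbx1 (r = 0.96), a ubiquitin ligase subunit, and Snrpg (r = 0.95), a splicing factor. Rplp0 averaged 661 ± 63.0 in TRaGS and 961 ± 81.2 in TRaWT Treg (SD, n = 4 each). All of these correlations share the same 8 libraries and the split by genotype.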

How the data were processed

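Splenic Treg and CD4 cells of 4 TRaGS and 4 TRaWT mice were profiled (16 libraries, 1 per mouse and subset). Per the labels' protocols, RNA came from column kits and libraries from a 3′ mRNA kit in forward orientation. GRCm38 is the build in the submitters' processing notes, and the aligner and counter were not given in the sources used here. As deposited by the authors, there is 1 table per subset with 47643 gene identifiers, and its unit is a signal, normalised read counts scaled separately per table. Values were whole multiples of 1 step per library (100% within 0.001), which gave the reads back, except in Treg TRaWT replicate 2, whose step was too near 1 to be told from unscaled values. edgeR and DESeq2 therefore used 7 Treg libraries, and edgeR called 43 genes in Treg and 3 in CD4. RPM values of that library take its normalised counts as reads. No molecular identifiers are described, so intervals cover counting error only.

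Symbols matched 47224 identifiers, and coordinates came from the GRCm38 annotation. Genes with a mean of at least 5 in a subset entered limma 3.58.1 (R 4.3.3) as log2(value + 1), with trended prior variances, and p-values were adjusted by Benjamini-Hochberg over all genes tested. Fold changes are on that scale, which understates low genes. Prior degrees of freedom were 36.8 in Treg and infinite in CD4, so SEs and p-values in CD4 do not measure the spread of a single gene. The 2 subsets' tables were never tested against each other.

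The genes and lists were chosen with earlier results of these data known. Named were all 10 genes, every gene of a list that limma called or, where limma called none, the 2 with the smallest p in Treg, the 3 genes most like Ltb4r1, Gna15 and Gng12, and neighbouring genes. The genotype comparisons were recomputed with a pseudocount of 0.5 or 5, unfiltered or with a mean of at least 20, and after upper-quartile scaling. They were also run with edgeR 4.0.16, DESeq2 1.42.0 and the replicate block, and without each library in turn. Of the TRaGS libraries, a last setting kept replicates 1 and 2 only, whose animal numbers lie near those of the TRaWT mice. A gene under a filter has no value in that setting. Treg and CD4 levels were recomputed with RPM over all reads and without the mouse of TRaGS replicate 2. The labels call the replicates biological, and each library was counted as 1 mouse. The code was tested on simulated data.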

Additional observations from a re-analysis of the deposited data

Results flagged for a closer look

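In CD4 cells of TRaWT mice, Gng12 in replicate 3 had 34.8 normalised counts, far above the other 3 TRaWT libraries at 1.22 to 2.51. In the same library Gpr183 had 395 normalised counts, above the other 3 at 318 to 330.5. Sets of 4 libraries were examined for a far library in 40 cases, of which these are the 2 found, and chance alone gives about 1 in 20.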

How the results depend on the processing

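Directions of the 10 genes changed sign in some alternatives only where the fold change of the main fit was small. In Treg these were S1pr4 and Gpr183, in 1 of 17 alternatives each, and in CD4 S1pr4 in 5, Ptger4 in 4 and Adora2a in 4. The CD4 direction of Adora2a depended strongly on the setting, with log2 fold changes from -0.89 to 1.13. The calls in Treg depended on the processing. Of the 106 genes called in Treg, the count became 62 with no filter, 43 with edgeR on 7 libraries, 42 with TRaGS replicates 1 and 2 only, and 56 to 108 when 1 library was left out, with 56 without TRaGS replicate 3 and 61 without TRaGS replicate 4. The 3 calls among the 10 genes, a description since this comparison chose them, became 1 with no filter, 0 with a mean of at least 20, 1 with edgeR, 0 with TRaGS replicates 1 and 2 only, and 1 to 3 when 1 library was left out (1 without TRaGS replicates 1, 3 or 4 or TRaWT replicates 2 or 3). In CD4 the 6 genes called became 1 with no filter, 2 with upper-quartile scaling, 3 with edgeR, 10 with DESeq2, 27 with TRaGS replicates 1 and 2 only, and 3 to 9 when 1 library was left out (3 without TRaWT replicates 2, 3 or 4). None of the 10 genes was called in CD4 in any alternative, including 0 to 0 when 1 library was left out. With fewer genes or libraries a count can fall by construction; otherwise the cause was not tested. With DESeq2 on 7 libraries Cysltr2, which passed the filter only through the TRaGS libraries, was called in Treg (adjusted p = 0.0277). Plcb4 also lost its call with TRaGS replicates 1 and 2 only (adjusted p = 0.0781). The replicate block gave 112 genes and 3 of the 10 in Treg, and 4 genes and 0 of the 10 in CD4. Same-numbered libraries of both genotypes did not deviate together, with correlations of 0.009 to 0.046 in CD4 and -0.021 to 0.026 in Treg, so the numbers did not pair them. The direction of the Treg and CD4 difference of all 10 genes was the same when RPM was taken over all reads. At this depth Ltb4r1 differences in CD4 were not detectable, and the low Gna15 and Gng12 values there rest on 1 to 11 reads per library.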
